A study of Mus musculus with 4 samples.

Results

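The regions described here are all 266 regions that the authors called in mouse embryonic stem cells (ESCs) expressing the biotin ligase BirA without a tagged partner. They came from 1 library and make up 266 of the 8763 regions in both deposited lists. The other list held 8497 regions for 2 independently derived clones that expressed Flag- and biotin-tagged Wapal (FB Wapal) together with BirA. The study removed regions also found in BirA cells before its own analyses of Wapal sites. The list used here is as deposited and still includes regions that meet BirA regions. Every library came from ESCs in standard ESC conditions, cross-linked with formaldehyde, and both sets of regions were called against 1 input library of sheared genomic DNA. The FB Wapal clones were made from BirA-expressing ESCs, so BirA is present in both. The labels describe the BirA sample as a negative control expressing the ligase, although 1 field shared by all samples, the input included, names cells with a biotinylatable Wapal. The lists hold no value that bears on which protein a cell expressed. The BirA line is 1 line with 1 library, so no value below has a spread between replicates, and no test across regions was made.

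BirA attaches biotin to a short acceptor peptide, and streptavidin beads then hold the biotinylated protein with the DNA cross-linked to it. Cells that carry the ligase without the peptide are the usual control for DNA that the beads recover without the tagged protein. Wapal releases cohesin from DNA, and cohesin is known to gather at sites of the zinc finger protein CTCF.

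The BirA regions were sorted by the gene next to them, with GENCODE genes on mm9. Within 2 kb of a histone gene lay 54 regions (20.3%), against 0.541% of all FB Wapal regions, a far longer list. Another 43 (16.2%) had a gene for a spliceosomal or other small nuclear RNA (snRNA) or a small nucleolar RNA (snoRNA) no farther than 2 kb away. For FB Wapal regions the share was 0.989%. The remaining 169 regions, 63.5% of the list (95% Wilson interval 57.6 to 69.1%), lay farther than 2 kb from both kinds of gene. The intervals given here cover counting error only. By gene, 245 of 37310 annotated genes (0.657%) had a BirA region within 2 kb, and so did 146 of 22380 protein-coding genes (0.652%).

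The sequences that the description turns on came from 3 kinds of place. The first lay upstream of genes for short untranslated RNAs that RNA polymerase III transcribes, which with the snRNA genes use promoters placed before the start rather than inside the gene. In such promoters the proximal sequence element lies upstream of the start and is bound by the factor SNAPc, and the polymerase III genes add a TATA box nearer the start. Capitals mark ACCNTNA, a run of letters read off these promoters after they were seen, and TTATA. Each sequence covers 80 to 21 bases before the start of a gene touched by a BirA region, on the strand of the gene, in mm9.
7SK, chr9:78023461-78023520, minus strand: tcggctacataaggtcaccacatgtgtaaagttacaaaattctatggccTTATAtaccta
RNase_MRP, chr4:43505951-43506010, minus strand: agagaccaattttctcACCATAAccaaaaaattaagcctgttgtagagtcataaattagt
Y_RNA of higher score, chr6:47738200-47738259, minus strand: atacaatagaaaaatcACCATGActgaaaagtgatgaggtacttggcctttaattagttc
Y_RNA of lower score, chr6:47731543-47731602, plus strand: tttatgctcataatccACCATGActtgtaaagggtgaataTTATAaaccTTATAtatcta
AC027184.1, chr14:51427463-51427522, minus strand: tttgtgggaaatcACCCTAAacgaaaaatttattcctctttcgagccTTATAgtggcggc
U6, chr12:53705599-53705658, minus strand: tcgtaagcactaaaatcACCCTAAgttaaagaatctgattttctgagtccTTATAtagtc
The 7SK promoter holds no exact match to ACCNTNA, and the RNase_MRP promoter and that of the higher-scoring Y_RNA hold no TTATA.

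The second kind of place held the CTCF core motif without mismatch (capitals) in regions that were also in the FB Wapal list, shown in the direction of the motif with 24 bases on each side. The 4 are those of highest BirA score with an exact match outside annotated UTRs. They lie past the 3′ end of Rps19, in an intron of Mon2, and in extragenic sequence near Gm13857 and Hspb3.
Rps19, chr7:25675623-25675682, plus strand: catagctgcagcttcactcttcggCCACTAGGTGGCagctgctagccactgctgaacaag
Mon2, chr10:122442435-122442494, minus strand: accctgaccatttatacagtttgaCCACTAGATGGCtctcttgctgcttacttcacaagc
Gm13857, chr6:34398144-34398203, minus strand: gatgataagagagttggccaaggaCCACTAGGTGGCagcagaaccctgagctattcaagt
Hspb3, chr13:114460083-114460142, minus strand: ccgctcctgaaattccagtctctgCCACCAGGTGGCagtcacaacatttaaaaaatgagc
The third was the 3′ end of histone genes, whose transcripts end in a stem-loop instead of a poly(A) tail. Capitals mark TTTTCAGAG, which holds the loop and the first bases of the 3′ arm of the stem.
Hist1h2bg, chr13:23663696-23663725, plus strand: acactcctaacccaaaggctcTTTTCAGAG
Hist1h1e, chr13:23713653-23713682, minus strand: agcccaacaacccaaaggctcTTTTCAGAG

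Of the 266 BirA regions, 71.4% shared at least 1 base with an FB Wapal region, while the reverse share was 2.05% of the FB Wapal regions. Sharing was 48 of 54 at histone genes (88.9%, interval 77.8 to 94.8%), 33 of 43 at snRNA or snoRNA genes (76.7%, 62.3 to 86.8%) and 109 of 169 among the remaining regions (64.5%, 57.0 to 71.3%). The split was rarely a matter of edges. Of the 190 shared BirA regions, 189 lay wholly inside an FB Wapal region, and the 109 shared remaining regions were all among them. The smallest overlap was 218 bp, the whole of a narrow region on chromosome 12. The unshared remaining regions on chromosomes with FB Wapal regions, 56 in number, lay a median of 60.4 kb from the nearest one, and 1 of the 56 lay within 1 kb.

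The value of each region is the authors' MACS score, which is 10 times the negative log10 of the p-value of the region against input. It ranks regions within a list and cannot be compared between lists. Median scores were 86.3 at histone genes, 112 at snRNA or snoRNA genes and 60.4 among the remaining regions, which nevertheless held the top region of the list at 408. Of the 169 remaining regions, 82 had a score under 60 and 21 had 100 or more. Shared and unshared remaining regions had medians of 60.7 and 60.3, and their ranges, which reached 408 and 163, overlapped. Their upper quartiles were 75.6 and 66.8. Among remaining regions, 27 of 34 with a score of 80 or more were shared. Between 60 and 80 it was 29 of 53, and under 60 it was 53 of 82, with intervals that overlapped. At snRNA or snoRNA genes the medians were 150 for shared and 78.1 for unshared regions. The remaining regions were a median of 423 bp wide, from 57 to 2062 bp.

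**Figure D1:**
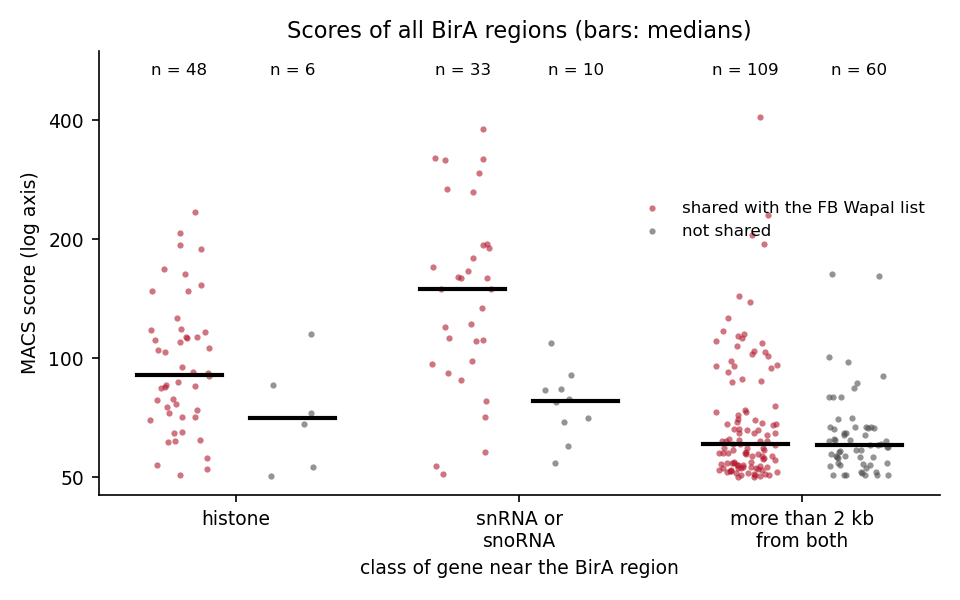
MACS score (log axis) of each BirA region by the class of gene within 2 kb, with regions shared with the FB Wapal list in red and others in grey; black bars are medians and n counts regions. Among regions more than 2 kb from histone, snRNA and snoRNA genes the medians of the shared (60.7) and unshared (60.3) regions nearly coincide, while their upper quartiles are 75.6 and 66.8.

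The histone regions lay near the starts and 3′ ends of the genes. For each, the nearest start or annotated 3′ end of a histone gene was taken. The centre was nearest to a start in 21 regions, at a median of 52 bp upstream, and nearest to a 3′ end in 33, at a median of 133 bp past it. In all, 43 of the 54 centres lay within 250 bp of such an edge, and 12 histone genes had a region at each. Of those 43 regions 41 were shared with the FB Wapal list, and of the 11 farther away 7 were. Several of the 11 belong to long gene models, such as Hist1h1d (3821 bp) and Hist1h1c (1560 bp), both linker histone genes, and Hist1h2bc (8290 bp).

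The 5 histone regions of highest score were those past Hist1h4i (234) and Hist1h3c (208), inside the long model of Hist1h1d (193), before Hist1h2ae (190) and past Hist1h2bk (168). All 5 were shared. The 6 unshared regions lay at Hist1h1e (115), Hist1h2bp (85.4), Hist1h2bm (72.9), Hist1h1c (68.2), Hist1h2bc (53.0) and the variant histone gene H2afz (50.5). TTTTCAGAG, searched on both strands in the central 500 bp, was in 5 of these 6, H2afz being the exception, and in 13 of the 48 shared regions. It was in 1.47% of all FB Wapal windows and 0.849% of the windows at starts of coding genes. Of the 22 BirA windows with these letters, 18 were at histone genes, 15 of them among the 33 regions nearest to a 3′ end. In windows of 300 bp these letters were in 3.76% of all BirA regions, against 8.27% at 500 bp. H2afz, whose transcript is polyadenylated, had its region 426 bp past the 3′ end. That region also lay just before the start of Dnajb14.

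**Figure D2:**
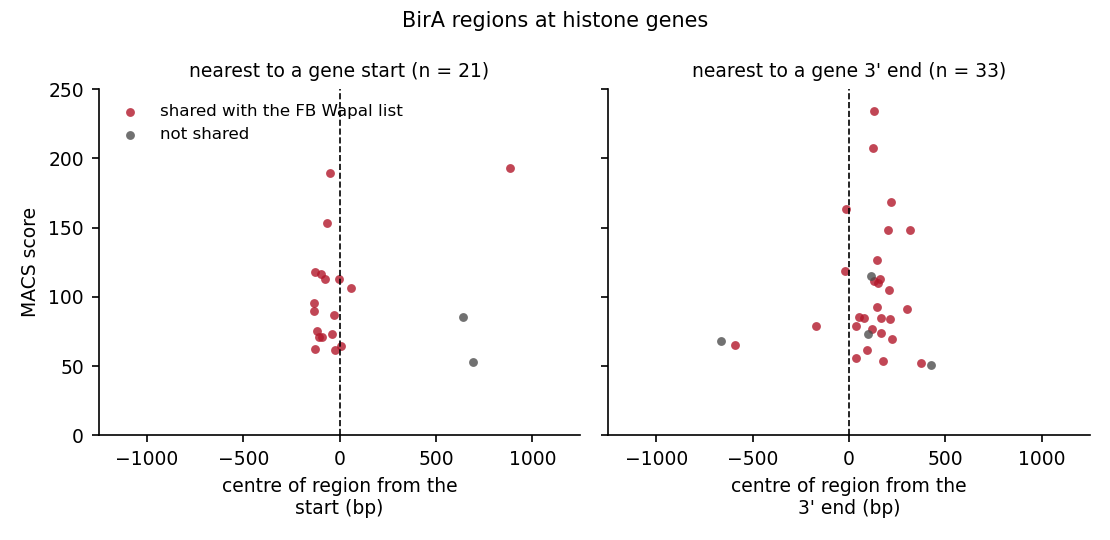
Distance in bp from the centre of each BirA region at a histone gene to the nearest gene start (left, n = 21) or 3′ end (right, n = 33), against its MACS score; positive distances are downstream, red regions are shared with the FB Wapal list, and 2 regions outside the horizontal range are not drawn. Points gather just before starts (median 52 bp upstream) and just past 3′ ends (median 133 bp).

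The snRNA and snoRNA regions sat on the genes. Of the 43, 35 touched a gene of the class, and the 5 of highest score, all shared, lay at U5 (381, 319 and 294), U2 (322) and U1 (317), RNAs of the spliceosome. BirA regions touched 27 of 1423 annotated snRNA genes (1.90%), a class with many scattered copies, and 5 of 1552 snoRNA genes (0.322%). Within 2 kb of a BirA region lay 2.18% of snRNA genes and 0.838% of snoRNA genes, beside 0.657% of all annotated genes. The snoRNA share was thus near that of all genes. For U5, BirA regions touched 7 of 10 genes, for U2 5 of 51, for U1 4 of 206 and for U6 3 of 936. The authors kept uniquely aligned reads, so a read that fits several copies equally well was not counted. For U4atac it was 1 of 1, and for U7, which serves histone 3′ end formation, 1 of 116 genes was touched (0.862%). ACCNTNA stood 40 to 80 bases before the start in 14 of the 27 touched snRNA genes (51.9%, interval 34.0 to 69.3%) and in 43 of the 1396 others (3.08%). Of the 8 snRNA genes touched by an FB Wapal region only, 1 had it, and 1.81% of all coding genes did. Since the letters were read off touched genes, these shares describe them and test nothing. The octamer ATGCAAAT, an enhancer element of snRNA genes and of histone H2b promoters, was in 41.9% of windows at snRNA or snoRNA genes, 11.1% at histone genes and 8.28% in the remaining regions, beside 3.04% of FB Wapal windows and 2.11% of windows at coding starts.

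Among the remaining regions were some at other genes for short RNAs. Of 487 genes annotated as misc_RNA, 5 had a BirA region within 2 kb (1.03%, beside 0.657% of all annotated genes), and it touched all 5. They were 7SK, whose RNA restrains transcription elongation, with a score of 230, a pair of Y_RNA genes at 163 and 98.7, the RNase_MRP gene, whose RNA acts in ribosomal RNA processing, at 162, and AC027184.1 at 62.3. AC027184.1 lies beside Parp2, where RefSeq (on another assembly) places Rpph1, the RNA of RNase P. All 5 centres lay 46 to 123 bp before the nearest annotated start, which was that of C920006O11Rik beside 7SK and that of Parp2 beside AC027184.1. ACCNTNA stood in the upstream window of 4 of the 5, and of 9 of the 482 other misc_RNA genes (1.87%). TTATA stood 20 to 40 bases before 3 of the 5, beside 12 of the 482 other misc_RNA genes (2.49%) and 1.41% of coding genes. Both runs of letters were chosen after these promoters were seen, so these shares also describe them and test nothing. The 7SK region and the lower-scoring Y_RNA region were in the FB Wapal list, and the other 3 were not. The Y_RNA and RNase_MRP regions were the highest-scoring unshared regions of the whole list. The 2 Y_RNA genes lie within 7.34 kb of each other, and an FB Wapal region covered 1 of them and ended 5883 bp from the region of the other. The box GTTCGANTC, found inside tRNA genes, was in 0 of the 266 windows, which allows a share of up to 1.42% by the Wilson interval, and in 0.388% of FB Wapal windows. The annotation used holds no tRNA genes.

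Several of the strongest remaining regions were centred within 2 kb past the 3′ end of a protein-coding gene, some of them near another annotated start as well. The top region of the list, on chromosome 16 from 23114009 to 23115044 (score 408), spanned the 3′ end of Eif4a2, which encodes a helicase of translation initiation, and its centre lay 318 bp past that end. An annotated transcript start of Rfc4, a clamp loader subunit gene, lay in the same region, as did the 3′ end of the Rfc4 gene. The region past Eef1a1, which encodes the factor that brings tRNAs to the ribosome, had a score of 195 and its centre 1545 bp past the end. It lay between converging genes, 1556 bp past the end of Mto1. Rps19 (139), Mcl1 (109), which encodes a survival factor, and Ppia (101), the cyclophilin A gene, followed at 941, 383 and 529 bp past their ends. A region of score 107.7 lay between the converging ends of Nfe2l3 and Hnrnpa2b1, a splicing regulator gene, 605 and 1061 bp past them. Fosb (95.8), of the AP-1 family, and Gapdh (92.3), of glycolysis, had regions 1595 and 434 bp past their ends.

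Among the 20 remaining regions of highest score, 6 were centred within 2 kb past a coding 3′ end (30%). Over all 169 the count was 17 (10.1%, interval 6.38 to 15.5%), beside 4.1% of all FB Wapal regions. It was 8 of 34 at a score of 80 or more, 5 of 53 between 60 and 80, and 4 of 82 under 60. In the mirror-image window, within 2 kb before a coding start, there were 7 of 169 (4.14%, interval 2.02 to 8.30%) and 257 of the 8497 FB Wapal regions (3.02%). Over the 169 regions the intervals of both windows overlapped. Both windows were chosen after the regions had been seen. Of the 17 regions 13 were shared with the FB Wapal list, and 4 held the CTCF core motif. The unshared ones were past Txnip (66.5), a thioredoxin inhibitor gene, Rps27a (62.3), Rpl13 (51.3), and between the converging ends of Gys1 and Ftl1, the ferritin light chain gene (54.4). Other shared ones were past Rpl23 (72.9), the CCAAT-binding factor gene Nfyc (64.1), Dppa5a (62.5), Sox2 (57.2) and Sgsm2 (51.6). By position, the regions past Eif4a2, Eef1a1, Fosb, Gapdh, Rpl23, Rps27a and Gys1 counted as promoter regions, within 2 kb of an annotated transcript start. The Fosb region lay beside the start of Gm17589, and the Rpl23 region was also counted in the mirror-image window. Transcript levels were not analysed here.

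**Figure D3:**
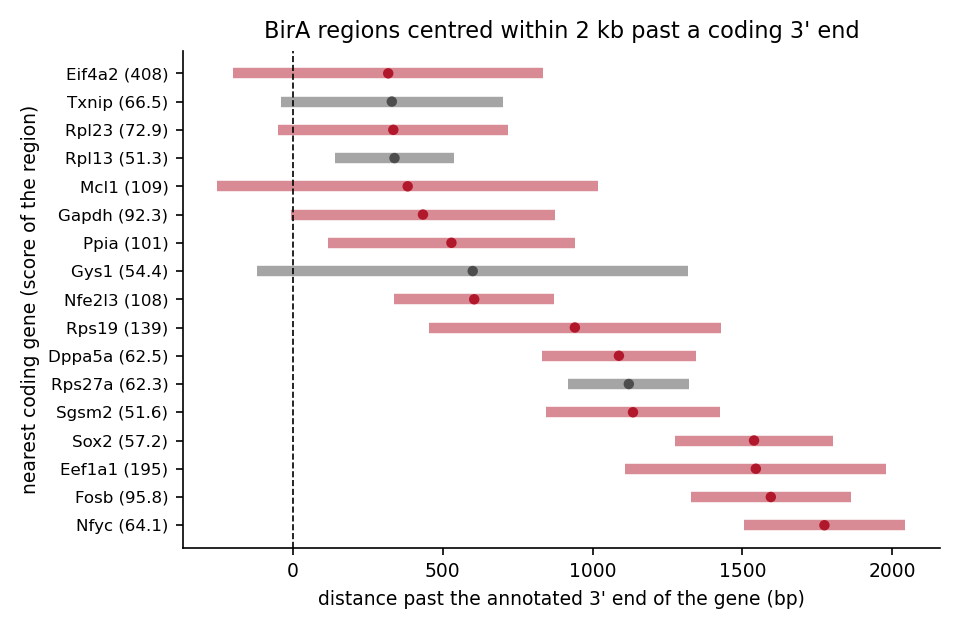
The 17 BirA regions away from histone and small RNA genes whose centre (point) lies within 2 kb past a coding 3′ end (dashed line at 0 bp); bars span the region, labels give the nearest gene with the region's MACS score, red regions are shared with the FB Wapal list and grey ones are not. The highest scores, at Eif4a2 (408) and Eef1a1 (195), lie 318 and 1545 bp past the ends.

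Of 150 ribosomal protein genes, 6 had a BirA region within 2 kb (4%), namely Rps19, Rpl23, Rps27a, Rpl13, Rpl10l (50.8, before its start) and Rpl12 (54.4, within 2 kb of Snora65 as well). Among all protein-coding genes the share was 0.652%. The others were 2 of 68 translation factor genes (2.94%, Eif4a2 and Eef1a1) and 3 of 25 abundant housekeeping genes (12%, Gapdh, Ppia and Ftl1). A further 2 of 19 pluripotency genes (10.5%) and Fosb of 14 immediate early genes (7.14%) were met. In none of these shorter lists did the count exceed a floor of 3 genes, so no difference from all genes is read from them. The pluripotency genes were Sox2, a core transcription factor of ESCs, and Dppa5a, a gene active in ESCs. Both their regions were shared. Of 9 small nucleolar host genes, Snhg3 (83.8) and Snhg5 (150) had one (22.2%), again under the floor of 3 genes. No gene was met among 374 protein-coding zinc finger genes, taken as those with symbols beginning in Zfp. A floor of 3 genes allows up to 0.802% there, above the 0.652% of all protein-coding genes. Zscan22, a zinc finger gene outside that list, held a shared region (62.3). None was met either in the chosen lists of 18 Polycomb genes, 14 genes of cohesin and Ctcf, 9 genes of biotin enzymes and 5 long noncoding RNA genes. The same floor allows up to 16.7, 21.4, 33.3 and 60% there, so these lists are too short to show a difference from all genes. Mtf2, a Polycomb-like gene outside the list of 18, had a shared region over its start (95.8). Of all 1273 genes annotated as lincRNA, 18 had a region within 2 kb (1.41%), beside 0.657% of all annotated genes.

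The miR-290 cluster, which yields the most abundant microRNAs of ESCs, held a pair of BirA regions, both inside 1 FB Wapal region that ranked 17 of 8497. The first (score 115) lay before Mir290, with its centre 579 bp upstream. The second, 1349 bp wide with a score of 205, was centred 1172 bp past the start of Mir295, overlapped the gene model of Nlrp12 and held an exact CTCF core motif. Slc25a12, a mitochondrial carrier gene, held 3 regions within 4.95 kb of its introns (87.4, 70.5 and 58.5), of which only the first was shared. On chromosome 16, 4 regions lay within 26.3 kb around AC191865.1, annotated as a microRNA, with scores from 53.8 to 70.1, and 1 was shared. Among the remaining regions 20 of 169 lay within 20 kb of another BirA region, and across the whole list 89 of 266 did, in 21 groups.

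By position, 31 of the remaining regions lay in promoters (within 2 kb of a start; 18.3%, interval 13.2 to 24.9%), against 10.7% of all FB Wapal regions. With starts of protein-coding genes only, the share of the remaining regions was 10.7%, and within 1 kb of a start it was 12.4%. The FB Wapal share above counts any annotated start within 2 kb, and none is given here for these other settings. A further 5 lay in exons, 46 in introns and 87 in extragenic sequence. Sharing with the FB Wapal list was 21 of 31, 5 of 5, 25 of 46 and 58 of 87 in these positions, and the intervals of all 4 overlapped. The median distance to a start was 8.84 kb, and 15.9 kb for FB Wapal regions. In all, 91 had an annotated gene within 2 kb and 78 had none.

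Counted in the central 500 bp on either strand and with no more than 1 mismatch, the CTCF core motif was more frequent in shared than in unshared remaining regions. It was in 51 of the 109 shared regions (46.8%, interval 37.7 to 56.1%) and in 6 of the 60 unshared ones (10.0%, 4.66 to 20.1%). It was in 68.9% of all FB Wapal windows and in 6.81% of windows at the starts of coding genes. Shared regions meet that motif-rich list by definition, so a higher share among them is partly built into the split. Of the FB Wapal regions, 48 of the 174 that met any BirA region held the motif (27.6%), and 69.8% of the others did. No histone window held the motif (0 of 54, up to 6.64%), and 6 of 43 windows at snRNA or snoRNA genes did. In extragenic sequence it was in 30 of 58 shared and 2 of 29 unshared windows, with intervals that did not overlap. In promoters it was in 6 of 21 and 0 of 10, and in introns in 13 of 25 and 4 of 21, with intervals that overlapped in both. In the 51 shared regions the motif lay a median of 36 bp from the centre, within 100 bp in 44 of them, and 11 matches were exact.

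Among shared remaining regions, those with the motif had a median BirA score of 57.8 and a top score of 205, and the other 58 had a median of 64.7 and a top of 408. Among unshared ones the medians were 63.8 with the motif (6 regions) and 59.8 without. The motif was in 6 of 34 remaining regions with a score of 80 or more, in 20 of 53 between 60 and 80 and in 31 of 82 under 60, with intervals that overlapped. The FB Wapal regions over the 51 had a median rank of 1007 of 8497, and those over the other 58 had a median rank of 3775. FB Wapal regions ranked 3, 8, 12 and 13 each held a motif-bearing BirA region of score 54.2 to 61.7, at Gm13939, near Tab2, in Nfat5 and near Gm15270, and the one ranked 17 held the motif-bearing miR-290 region of score 205. Over the 109 shared remaining regions the scores in both lists had a Spearman correlation of 0.0663, and over the 48 shared histone regions of 0.412. Both lists were called against the same input, and regions are not independent, so these are descriptions only.

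**Figure D4:**
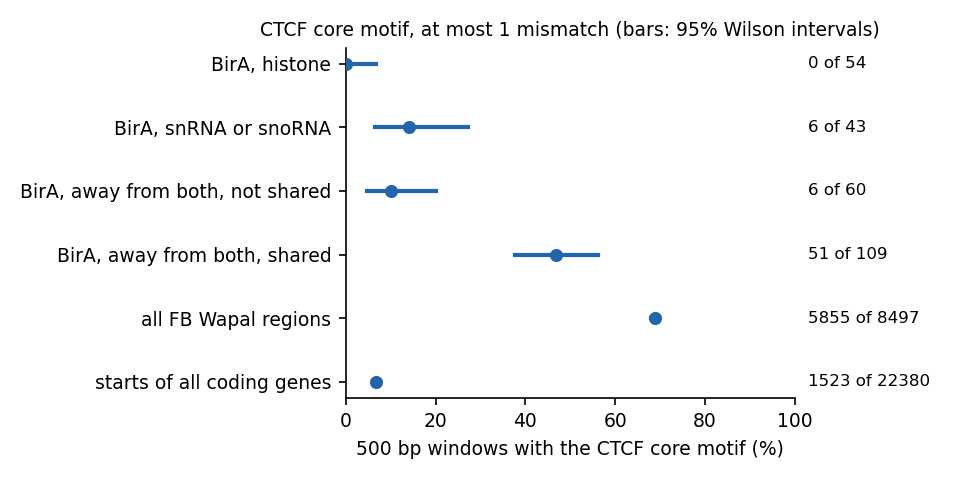
Share of 500 bp windows (percent) with the CTCF core motif at no more than 1 mismatch, by group of BirA regions, with all FB Wapal regions and the starts of all coding genes beside them; points are shares, bars are 95% Wilson intervals, and the counts stand at the right. The shared regions away from both gene classes (46.8%) stand between the unshared ones (10.0%) and the FB Wapal list (68.9%).

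The FB Wapal regions that met a BirA region were not spread evenly over that list. With that list cut by score into 10 bins of near equal size, the highest bin of 850 held 57 of the 174, of which 32 met a remaining region, and the lowest held 6, of which 5 did. Among the 10 highest FB Wapal regions 3 met a BirA region, and among the 20 highest 7 did. In the highest bin, 23 FB Wapal regions met a motif-bearing remaining region and 10 met one without the motif, with the region over the miR-290 cluster counted in both. From bin 6 to bin 10, the counts were 1, 1, 0, 3 and 0 for regions with the motif and 5, 7, 5, 5 and 5 for those without. The share of FB Wapal regions with the motif itself was 73.9% in the highest bin and 67.2% in the lowest.

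**Figure D5:**
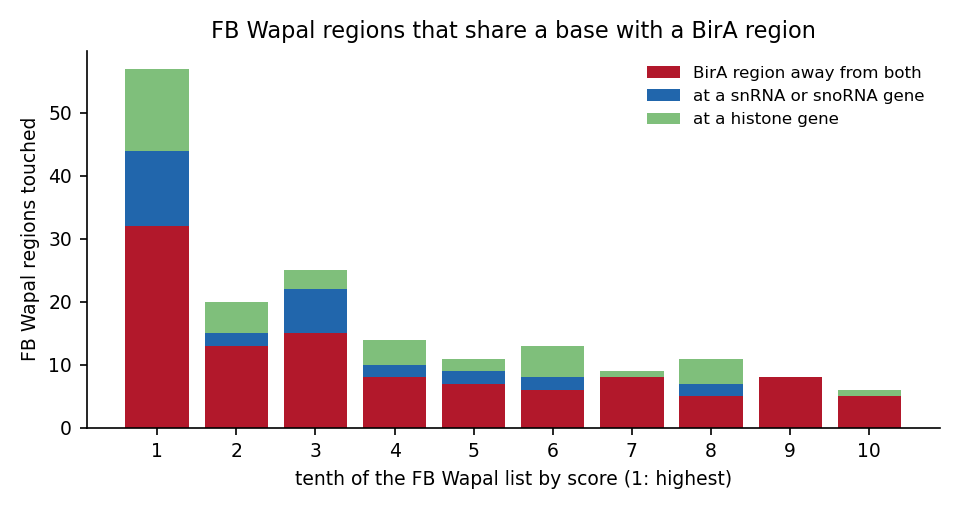
Number of FB Wapal regions that share a base with a BirA region (vertical axis) in each of 10 bins of the FB Wapal list by score, coloured by the class of the BirA region. The highest bin holds 57 of 174, and 32 of these meet a region away from histone and small RNA genes.

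Among the 20 remaining regions of highest score not yet described were a 1916 bp region near the pseudogene Gm13036 on chromosome 4 (143), introns of Mon2 (126), 4930468A15Rik (104), Megf11 (104) and Gm15710 (102), and extragenic regions whose nearest start was that of Gm9763 (117), SNORA48 (114, at 199 kb), Spp1 (113) or Epdr1 (111, at 95.8 kb). All of these were shared. The 10 unshared regions of highest score, beside a Y_RNA and RNase_MRP, lay in introns of Gm11019 (101) and Cdyl (97.7), at the start of Ints4 (90.4), a subunit gene of the Integrator complex that cleaves snRNAs, and in extragenic sequence near Gm13247 (86.5), U6 (84.0, at 29.1 kb and with an exact CTCF core motif), Gm16724 (79.99), Gm3395 on chromosome Y (79.9, at 233 kb) and Nucks1 (79.6). The widest remaining region covered 2062 bp at Ppp1r10, Mrps18b and Mir1894 (73.2, shared), and after the Gm13036 region came the unshared region near Gm16724 just given (1502 bp, also within 2 kb of Gm16627), 1439 bp between Gys1 and Ftl1, and 1427 bp on chromosome 6 with no gene within 2 kb (52.1, shared).

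A few unshared regions lay in repeated sequence. In 7 of the 60 unshared remaining regions, and in none of the 109 shared ones, over 50% of the 31-base words occurred more than once in mm9. Of the 5 regions narrower than 100 bp, 3 lay on chromosome X, 1 on Y and 1 on chromosome 8, none was shared, and the 3 with 57, 61 and 69 bp had the same score of 66.9. Chromosome Y held 4 BirA regions and 0 FB Wapal regions. Without the 7 repeated regions, 67.3% of the remaining regions were shared. At the limit of 2 kb, the farthest region counted with a small RNA gene lay 1367 bp from Snora65 (54.4), and the nearest region counted outside lay 2180 bp from SNORA4. The latter was the Eif4a2 region of score 408, and next came the Rpl13 region at 2262 bp from Snord68.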

How the data were processed

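Chromatin of ESCs was recovered on streptavidin and sequenced, with 1 BirA library, libraries of 2 FB Wapal clones and 1 input. The authors aligned reads with Bowtie to mm9, kept unique alignments and called regions against input with MACS 1.4.2. The deposited value of each region is the MACS score, 10 times the negative log10 of the p-value. The study's methods state a minimum of aligned reads per sample, but neither list gives reads per region, and the number behind each value is unknown. How the FB Wapal clones were joined is not given in the sources used here.

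Regions were read as deposited, and distances were measured to GENCODE M1 genes on mm9 with Python 3.11.15, numpy 2.4.6, pandas 2.3.3, pysam 0.24.0 and numba 0.67.0, with figures by matplotlib 3.10.9. Regions within 2 kb of a histone gene (89 genes) were classed first, then those within 2 kb of an snRNA or snoRNA gene (2975 genes). Motifs were searched on both strands in the central 500 bp, the CTCF core as 12 letters with at most 1 mismatch. Shares have 95% Wilson intervals, which cover counting error only. Code was tested on simulated data.

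Named were the 5 regions of highest score at histone and at small RNA genes and, among the rest, the 20 of highest score, the 10 highest unshared, the 5 widest, those nearest the 2 kb limit and those within 2 kb of listed genes. The members and lists were chosen with earlier results of these data known. The measures of distance past 3′ ends and of histone gene sides, and the letters ACCNTNA and TTATA, were added after values and sequences were seen, and regions outside the rule that the text names were chosen after their values were seen. Alternatives were other distances, score minimums, overlaps, gene sets, windows and mismatches.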

Additional observations from a re-analysis of the deposited data

How the results depend on the processing

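With BirA regions of score 100 or more only, the list held 68 regions, 22 at histone genes, 25 at snRNA or snoRNA genes and 21 elsewhere. Of them 63 were shared, and of the 21 elsewhere 85.7% were shared, 33.3% lay in promoters, 0% in exons and 42.9% in extragenic sequence. With FB Wapal regions of score 100 or more only, 125 BirA regions were shared, and 39.6% of those away from histone and small RNA genes. Their promoter share was 12.4% with promoters of 1 kb, 33.7% with 5 kb (introns then 18.9%) and 10.7% with coding genes only (extragenic then 63.9%). The CTCF core was in 5.64% of all BirA windows with 0 mismatches, 49.2% with 2, and 29.3% in windows of 1000 bp. With 0 and 2 mismatches it was in 10.1% and 69.7% of the shared regions away from both gene classes, and in 1.67% and 40% of the unshared, beside 25.96% and 91.4% of FB Wapal windows and 0.702% and 46.5% of windows at coding starts, so that with 2 mismatches the unshared share did not exceed that of coding starts. That split by mismatches was chosen after seeing the data, as was a distance of 1 kb past a coding 3′ end, which held 5.92% of these regions. Within 1 kb before a coding start lay 3.55% of them, with intervals that overlapped. Of FB Wapal regions, 1.86% were centred within 1 kb past a coding 3′ end. The causes were not tested beyond what each setting removes. In windows of 300 bp the octamer was in 10.5% of BirA regions and TTTTCAGAG in 3.76%, against 14.3% and 8.27% at 500 bp. In 42 other combinations of a main result and a setting, the value moved by less than its counting interval or by under 1.5 times. The share of soft-masked bases was not computed, since the genome used is in capitals throughout, and repeated 31-base words were counted instead. No paired analysis was possible because each group has 1 list of regions and no result comes from a test, and for the same reason no replicate could be left out.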

Other observations

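Limits of these values follow from their source. One BirA library gives no spread between replicates, and neither list holds read counts, so a region missing from a list may lie just under its threshold. The FB Wapal regions were a median of 814 bp wide and the BirA regions 469 bp, and the lists differ in the number of libraries behind them. Whether sequencing depth differed between them was not analysed here. Several BirA regions can lie in 1 FB Wapal region, as they did in 15 FB Wapal regions, with up to 3 in 1.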
